A study of Mus musculus with 13 samples.

Results

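Arg1-high and Arg1-low tumors were compared among 9 genetically induced basal cell carcinomas (GEM-BCC) from 7 mice. The classes were defined by measured values and not by the design of the study: a tumor with 50 or more Arg1 counts was placed in the Arg1-high class, which held GEM4, GEM5 and GEM7, and the other 6 tumors made up the Arg1-low class. These 9 tumors were part of a series of 13, whose remaining 4 libraries were transplanted tumors (Tp-BCC) with 0 or 1 Arg1 count each, which were not compared here. Tumors of both classes had arisen in the skin of female Ptch1+/- K14-CreERT2 p53fl/fl mice after 3 tamoxifen injections of 300 µg and 1 X-ray dose of 4 Gy. In these animals 1 Ptch1 allele was lacking in every cell, whereas deletion of p53 was restricted to cells with an active keratin 14 promoter, the basal cells of the epidermis and its appendages. The ages of the mice were not given in the labels. The Arg1-high tumors came from 3 mice and the Arg1-low tumors from 5 mice. GEM2 and GEM3 grew in 1 mouse, and so did GEM7 and GEM8, which fell into different classes.

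Arginase 1 splits arginine into ornithine and urea. It serves the urea cycle in liver, and in tumors it is best known as an enzyme of myeloid cells that deplete arginine and so restrain T cells, although keratinocytes can express it too. Ornithine feeds the synthesis of polyamines and proline, and nitric oxide synthases compete with arginases for the same substrate. In the epidermis, keratinocytes that leave the basal layer switch from keratins 5 and 14 to keratins 1 and 10, strengthen their desmosomes and build the cornified envelope.

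Total counts were similar in the 9 libraries, from 28075317 to 32629102 per tumor. GEM1 stood apart in its base composition, with a rank correlation across genes between level and transcript GC content of 0.481 against -0.201 to 0.0373 in the other 8 tumors. All 9 libraries carried the same batch label. The tissue label was checked on a list of 14 basal keratinocyte and basal cell carcinoma genes, all of which were measured, with the lowest Krt5 level at 4952 CPM. CPM denotes a count relative to the library total (counts per 1e+06), scaled between tumors by the trimmed mean of M-values (TMM).

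Arg1 itself was sparse in every tumor. GEM4 held 90 Arg1 counts, GEM5 held 62 and GEM7 held 61, and there were 10, 1, 3, 1, 4 and 1 in GEM1, GEM2, GEM3, GEM6, GEM8 and GEM9. The tumors nearest to the threshold were thus GEM7 with 61 counts and GEM1 with 10 counts, and the same 3 tumors ranked highest by CPM. The level was 2.29 ± 0.657 CPM (SD, n = 3) in the Arg1-high tumors and 0.108 ± 0.114 CPM (SD, n = 6) in the Arg1-low tumors, a difference that the choice of the classes fixed. In bulk tumor RNA, more cells that express a gene and more RNA of that gene per cell cannot be told apart.

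**Figure D1:**
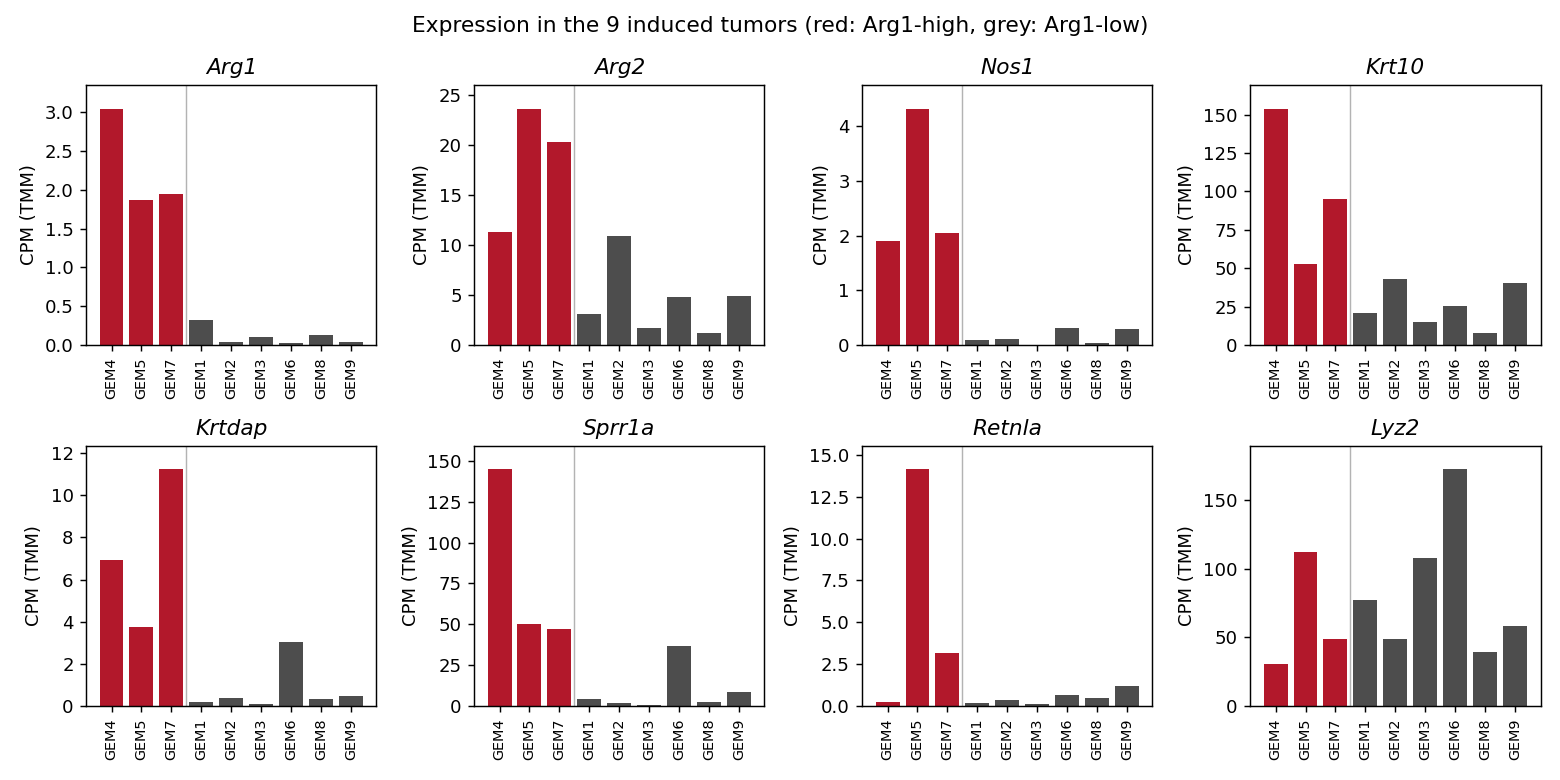
Levels of 8 genes in the 9 GEM-BCC tumors, in TMM-scaled CPM on linear axes that start at 0, with 1 bar per tumor. Red bars are the Arg1-high tumors GEM4, GEM5 and GEM7 and grey bars the Arg1-low tumors. Arg1 chose the classes. Arg2, Nos1, Krt10, Krtdap and Sprr1a were above all grey bars in all red bars, Retnla was high in GEM5 and GEM7 but not in GEM4, and Lyz2 was highest in GEM6.

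Across all other genes the classes were not separated by the test. None of 14494 genes (0%) passed an adjusted p of 0.05 in edgeR's quasi-likelihood test with Benjamini-Hochberg adjustment, and the smallest adjusted p was 0.0672. Without adjustment, 738 genes (5.09%) had p under 0.05, close to the share that the threshold itself allows, of which 551 (3.8%) were higher and 187 (1.29%) lower in Arg1-high tumors. DESeq2's Wald test on the same counts called 53 genes, 43 higher and 10 lower, at an adjusted p of 0.05. As a description that needs no model, 305 genes (2.1%) had every Arg1-high tumor above every Arg1-low tumor and 159 genes (1.1%) had every Arg1-high tumor below. The median fold of all genes was -0.01 on the log2 scale. With scaling by library size alone the non-overlapping genes numbered 392 above and 79 below, so that 83.2% were above in place of 65.7%, and the median fold moved to 0.06.

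Among the genes that act on arginine, Arg2 and Nos1 were above in all 3 Arg1-high tumors, whereas no gene of ornithine use was. Arg2, the mitochondrial arginase, was at 11.3, 23.7 and 20.3 CPM in GEM4, GEM5 and GEM7, and its lowest, median and highest level in the Arg1-low tumors was 1.19, 3.93 and 10.9 CPM. The classes did not overlap, although GEM4 and the highest Arg1-low tumor, GEM2, were nearly level. The difference was 2.06 ± 0.571 (log2, SE) with an unadjusted p of 0.00385 and an adjusted p of 0.582 (edgeR).

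Nos1, the neuronal nitric oxide synthase, was at 1.90, 4.32 and 2.04 CPM in GEM4, GEM5 and GEM7 and at 0, 0.103 and 0.309 CPM (lowest, median and highest) in the Arg1-low tumors. It was close to absent in all 6 of them. It passed the filter on low counts only through the Arg1-high tumors, which favoured a higher level there, although GEM6 reached 10 counts. The difference was 4.25 ± 0.787 (log2, SE), with an adjusted p of 0.234 in edgeR and of 0.00066 in DESeq2. The inducible and the endothelial synthases, Nos2 and Nos3, differed by -0.03 and -0.06 on the log2 scale with overlapping classes, and both signs turned with scaling by library size. Slc7a2, a transporter that carries arginine into the cell, was above in all 3 Arg1-high tumors by 0.75 ± 0.355 (log2, SE), with GEM5 at 96.8 CPM beside 95.2 CPM in GEM2. Prodh, which breaks down proline, was below in all 3, with a difference of -0.78 ± 0.311 (log2, SE). Neither passed the threshold in edgeR, and the classes of Slc7a2 overlapped when GEM4 was left out and the scaling recomputed. Of the 16 tested genes of arginine breakdown and nitric oxide synthesis, 2 were above without overlap (12.5%, against 2.1% of all genes). In the other direction 1 was below, where 1.1% of all genes were. The median fold of the 16 was -0.12 on the log2 scale. Leaving out Nos1, which the filter favoured, 1 of the other 15 was above without overlap.

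Polyamine genes were mostly lower. Of 14 tested genes of polyamine synthesis and turnover, 3 had higher and 11 lower fitted levels in Arg1-high tumors, with a median of -0.26 on the log2 scale. Odc1, which turns ornithine into putrescine, was at 71.8, 84.5 and 106 CPM in GEM4, GEM5 and GEM7 and at 91.8, 121 and 268 CPM (lowest, median and highest) in the Arg1-low tumors, a difference of -0.76 ± 0.335 (log2, SE, unadjusted p 0.0426, adjusted p 0.964 in edgeR). Its classes overlapped, since GEM7 lay above GEM9. Paox, the polyamine oxidase of the peroxisome, was below in all 3 Arg1-high tumors, with a difference of -0.38 ± 0.189 (log2, SE). Oat, the enzyme between ornithine and proline, differed by -0.34 and the transporters Slc7a1 and Slc3a2 by -0.68 and -0.39 (log2), all with overlapping classes. Among the 8 tested transporters of arginine and ornithine, 3 were higher and 5 lower.

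Genes of keratinocyte differentiation had mostly higher levels in the Arg1-high tumors. Of 33 tested genes of the cornified envelope and skin barrier, 31 had a higher fitted level in Arg1-high tumors, with a median fold of 1.56 on the log2 scale beside -0.01 over all genes. In 10 of the 33 (30.3%, against 2.1% of all genes) every Arg1-high tumor was above every Arg1-low tumor, and 21 of the 33 (63.6%, against 3.8%) had an unadjusted p under 0.05 in that direction. Among 14 suprabasal and wound keratins, 11 were higher with a median of 1.64, and 4 did not overlap. Among 11 desmosome genes, 9 were higher with a median of 0.61, and 5 did not overlap. The filter kept genes with 10 counts or more in at least 3 tumors, and 6 of the 33, 1 of the 14 and 0 of the 11 genes met it only through the Arg1-high tumors, as did 421 of all genes (2.9%). Of those 421, 48 were above without overlap, so that the filter favoured a higher level in Arg1-high tumors but did not fix it. No such gene of these lists is among the non-overlapping genes counted here. Without such genes 25 of 27 cornified envelope and barrier genes were higher, with a median of 1.47. The share with p under 0.05 was counted with such genes included. None of these 58 genes passed the adjusted threshold in edgeR, and the genes of a list were measured in the same 9 libraries, so that their counts are not independent of each other. Unless said otherwise, the epidermal genes named here were chosen after their values were seen.

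Krt10, a keratin of the first layers above the basal one, was at 154, 52.7 and 94.9 CPM in GEM4, GEM5 and GEM7, and at 7.89, 23.4 and 43.3 CPM (lowest, median and highest) in the Arg1-low tumors. The lowest Arg1-high tumor thus stood only just above the highest Arg1-low tumor, GEM2. The difference was 1.97 ± 0.469 (log2, SE, unadjusted p 0.00135, adjusted p 0.507 in edgeR). Krtdap, a small secreted protein of differentiating keratinocytes, was at 6.91, 3.75 and 11.2 CPM in GEM4, GEM5 and GEM7 and at 0.0981, 0.337 and 3.03 CPM in the Arg1-low tumors. The highest of these was GEM6, with the next, GEM9, at 0.457 CPM. Its difference of 3.28 ± 0.875 (log2, SE) had an adjusted p of 0.573 in edgeR and of 0.0374 in DESeq2.

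Sprr1a, a cornified envelope precursor, was at 145, 50.1 and 47.4 CPM in GEM4, GEM5 and GEM7. In the Arg1-low tumors it was at 0.589, 3.28 and 36.6 CPM (lowest, median and highest), again with GEM6 on top. Klk7, a protease that cleaves cell contacts in the outer epidermis, was at 81.9 CPM or more in Arg1-high tumors and at 80.6 CPM in GEM6, but at 20.3 CPM or less in the other 5 Arg1-low tumors. Klk5 and Klk10 did not overlap either, with differences of 2.08 and 2.84 on the log2 scale. Calml3, a calmodulin-like protein of epithelia, Cst6, an inhibitor of cysteine proteases, and Evpl, the envelope scaffold envoplakin, differed by 2.12, 2.46 and 0.70 without overlap. So did Grhl3 and Ovol1, transcription factors of epidermal differentiation, by 1.84 and 2.02. The keratins Krt77, Krt78 and Krt23 were also above without overlap, by 2.97, 2.68 and 1.74, and Krt79, a keratin of the upper hair follicle and sebaceous duct that was listed with the sebaceous gland, by 2.19.

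**Figure D2:**
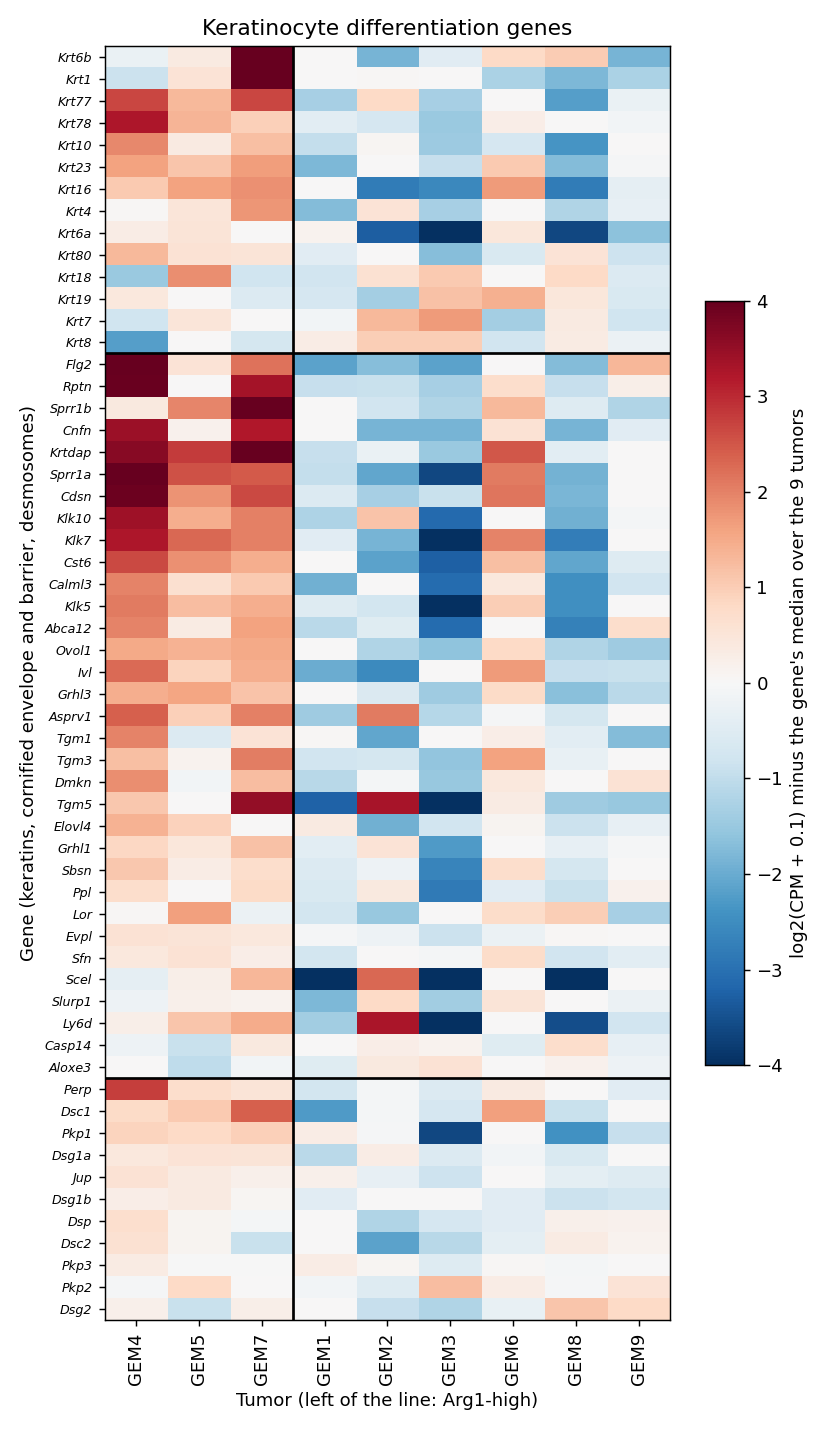
Heat map of 58 tested genes of keratinocyte differentiation (rows) in the 9 GEM-BCC tumors (columns), in 3 blocks of keratins, cornified envelope and barrier genes and desmosome genes, each ordered by fold change. Colour gives log2(CPM + 0.1) minus the median of the gene over the 9 tumors, limited to 4 on either side. The 3 Arg1-high columns left of the vertical line are mostly red, GEM6 is the reddest of the Arg1-low columns, and GEM3 is the bluest in the block of cornified envelope genes.

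Not every differentiation gene was higher in the Arg1-high tumors. Casp14 and Aloxe3, which act late in barrier formation, differed by -0.25 and -0.48 on the log2 scale. Sfn and Ly6d, the members with the highest mean level, differed by 0.54 and 0.08 with overlapping classes. Ly6d was highest of all 9 tumors in GEM2, at 948 CPM, and so was Scel, at 231 CPM. Krt1, the partner of Krt10, and Krt6b, a keratin of wounded skin, were high in GEM7 alone, Krt1 at 36.2 CPM beside 2.75 CPM or less in every other tumor. Krt8, a keratin of simple epithelia, differed by -1.11 ± 0.489 (log2, SE, unadjusted p 0.0438 in edgeR), with overlapping classes.

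In the desmosomes, Perp was at 2610, 627 and 548 CPM in GEM4, GEM5 and GEM7 and at 233, 323 and 491 CPM (lowest, median and highest) in the Arg1-low tumors. Its fold was 1.90 on the log2 scale and 0.76 without GEM4, in both cases without overlap. Pkp1, Dsg1a, Dsg1b and Jup, which build the plaque and the adhesive contacts, were above by 1.47, 0.76, 0.61 and 0.66, but Jup did so by a narrow margin, with GEM7 at 372.5 and GEM1 at 371.7 CPM, and overlapped without GEM4. Dsg1a and Dsg1b are close copies of each other, so that the split of reads between them is uncertain.

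GEM6 was the highest of the 6 Arg1-low tumors in 17 of the 33 cornified envelope and barrier genes, followed by GEM2 in 8, whereas GEM3 was the lowest in 20. The list level is an average across member genes of log2 CPM minus the mean of the gene over the 9 tumors. It was 1.81, 0.831 and 1.64 in GEM4, GEM5 and GEM7 and 0.698 in GEM6, and ran from -2.17 to -0.302 in the other 5. By summed level, which the most abundant members dominate, the classes overlapped: GEM4, GEM5 and GEM7 were at 2400, 1682 and 1949 CPM, whereas GEM2 was at 2030 CPM, above GEM5 and GEM7, GEM6 at 1449 CPM and the other 4 at 460.7 to 809.5 CPM. GEM6 and GEM2 had 1 Arg1 count each.

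Genes of the basal cell and of the carcinoma overlapped between the classes. Among the 14 basal keratinocyte and basal cell carcinoma genes, 11 were higher and 3 lower with a median of 0.17 on the log2 scale, and none was without overlap. Krt5 and Krt14 differed by -0.11 and 0.28 on the log2 scale. Of 20 tested Hedgehog genes named by the study, 11 were higher and 9 lower, with a median of 0.08.

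Promoters are shown for the 3 genes whose RefSeq window held a match to a searched motif, out of 19 keratin, envelope and desmosome genes that were above without overlap, 11 of which had a window in the RefSeq table (GRCm38.p6). Each window runs from 250 bases before to 50 bases after the start of the gene, 5′ to 3′ on the strand of the gene, and capitals mark TATAAA (the TATA box) and TGANTCA (the motif of AP-1), searched on both strands. The windows lie at chr11:99389315-99389614 on the minus strand for Krt10, at chr7:30787655-30787954 on the plus strand for Krtdap and at chr3:92485832-92486131 on the minus strand for Sprr1a.
Krt10: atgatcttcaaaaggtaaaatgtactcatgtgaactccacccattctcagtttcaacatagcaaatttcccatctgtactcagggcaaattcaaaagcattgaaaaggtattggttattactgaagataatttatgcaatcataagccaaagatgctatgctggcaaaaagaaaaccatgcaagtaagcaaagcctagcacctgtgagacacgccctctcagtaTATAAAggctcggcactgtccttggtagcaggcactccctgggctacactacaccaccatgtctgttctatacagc
Krtdap: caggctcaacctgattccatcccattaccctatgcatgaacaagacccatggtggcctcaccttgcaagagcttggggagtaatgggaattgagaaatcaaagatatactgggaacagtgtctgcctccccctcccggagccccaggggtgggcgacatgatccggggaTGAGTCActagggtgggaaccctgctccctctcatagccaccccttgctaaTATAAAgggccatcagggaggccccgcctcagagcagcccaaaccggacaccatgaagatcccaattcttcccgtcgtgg
Sprr1a: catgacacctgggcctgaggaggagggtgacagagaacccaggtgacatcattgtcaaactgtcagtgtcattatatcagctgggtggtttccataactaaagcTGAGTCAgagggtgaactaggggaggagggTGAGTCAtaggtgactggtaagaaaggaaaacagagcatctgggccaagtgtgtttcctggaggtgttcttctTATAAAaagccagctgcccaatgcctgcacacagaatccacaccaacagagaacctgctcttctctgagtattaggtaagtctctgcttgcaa
TATAAA was present in 3 of the 11 windows and in 13.6% of 32851 windows of all genes, and TGANTCA was present in 2 of the 11, Krtdap and Sprr1a, and in 7.81% of all windows. AACCNGTT, letters bound by grainyhead-like factors such as Grhl3, was in 0 of the 11 and in 2.09% of all windows. These matches describe letters and do not show binding.

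GEM7 and GEM8 offered a comparison within 1 mouse, with 1 tumor on each side and hence without a test. GEM7, with 61 Arg1 counts, was above GEM8, with 4, in 30 of the 33 cornified envelope and barrier genes, and by more than 1 on the log2 scale in 26 of them, where 10.4% of all genes were that far above and 5.12% that far below. The median of the list was 2.83 in this pair. These counts and the median include the 6 genes that met the filter on low counts only through the Arg1-high tumors. Lists of other cells were also higher in GEM7 than in GEM8, with medians of 2.62 for T and NK cells (8 genes), 1.79 for mast cells (5), 1.52 for neutrophils (7) and 1.23 for MHC class II (6). Of the 8 T and NK cell genes, 4 met the filter only through the Arg1-high tumors, which favoured a higher level in GEM7. No mast cell, neutrophil or MHC class II gene did so. The median of the cornified envelope and barrier list was 1.65 in the remaining 7 tumors, GEM4 and GEM5 against GEM1, GEM2, GEM3, GEM6 and GEM9. That of the suprabasal and wound keratins was 3.29 in the pair and 0.93 in the remaining 7 tumors. Arg2 was 4.02 and Nos1 4.46 higher (log2) in GEM7 than in GEM8, and 1.73 and 4.17 higher in the comparison of the other tumors. GEM8 was among the low tumors for both.

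**Figure D3:**
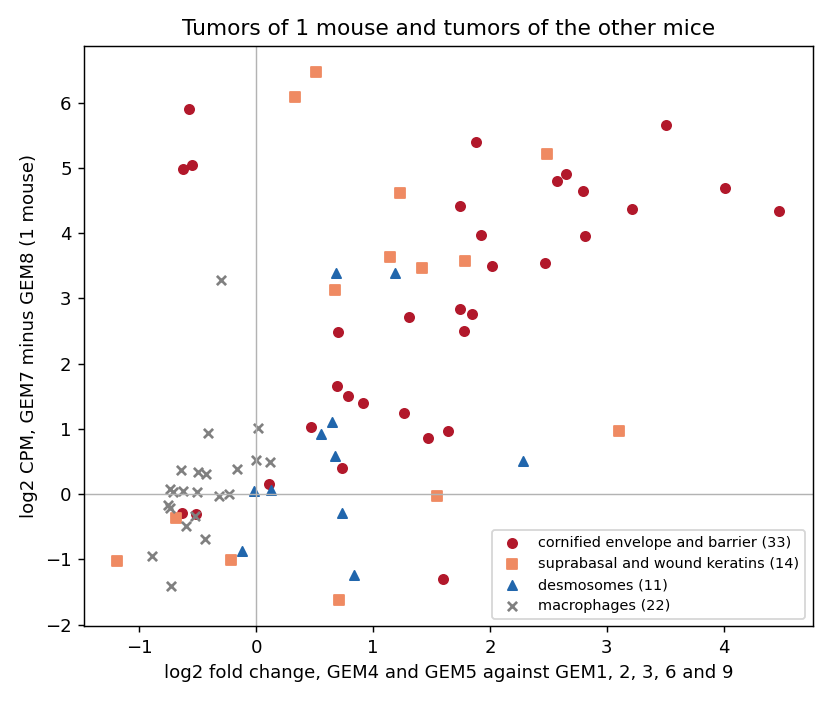
Each point is 1 gene of 4 lists, with the log2 fold change of GEM4 and GEM5 against GEM1, GEM2, GEM3, GEM6 and GEM9 on the x axis and the log2 CPM of GEM7 minus that of GEM8, tumors of 1 mouse, on the y axis. Most cornified envelope and barrier genes (red circles, median 1.65 on x and 2.83 on y) lie in the upper right, whereas macrophage genes (grey crosses, median -0.50 and 0.04) gather left of 0 on the x axis.

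The differences in differentiation genes were nearly as large without GEM4. Without it, 31 of the 33 cornified envelope and barrier genes were higher with a median of 1.51, and 11 did not overlap (467 of all genes, 3.22%, were above without overlap among the 8 tumors that remained). The 33 include the 6 genes that met the filter on low counts only through the Arg1-high tumors. Scaling was recomputed for the 8 tumors, and 257 of the 305 genes above without overlap in 9 tumors were still so.

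Markers of macrophages, cells in which Arg1 is often sought, were mostly lower in fitted level in the Arg1-high tumors. All 22 macrophage genes were tested, and 18 were lower and 4 higher in Arg1-high tumors, with a median of -0.50 on the log2 scale, no gene with p under 0.05 and no gene without overlap. Without GEM4 the median was -0.21, with 16 lower and 6 higher, and GEM7 was above GEM8 in 14 of the 22. Their summed level was 293.5 CPM in GEM4, the lowest of all 9 tumors, 634.3 in GEM5 and 422.8 in GEM7, against 342.5 to 747.9 CPM in the Arg1-low tumors. Lyz2, the lysozyme of myeloid cells, was at 30.7, 112 and 48.5 CPM in GEM4, GEM5 and GEM7 and at 39.2, 67.6 and 172 CPM (lowest, median and highest) in the Arg1-low tumors. C1qa, a complement component, Csf1r, the receptor for macrophage growth factor, and Cd68, a lysosomal protein, differed by -0.69, -0.63 and -0.97 (log2) with overlapping classes. By the summed level of the list, GEM4, with the most Arg1, was the poorest and GEM6, with 1 Arg1 count, the richest. Not every marker followed this order: Cd68 was at 11.2 CPM in GEM4 but 8.11 in GEM2, and at 23.6 in GEM6 but 39.4 in GEM1.

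Most neutrophil and granulocytic suppressor cell genes were scarce, although Lcn2 reached 451 counts in GEM6 and Mmp9 reached 482 in GEM3. Of 20 such genes, 7 passed the filter on low counts and 13 did not, and Ly6g, Elane, Cxcr1, Stfa1 and Wfdc21 had 3 counts or fewer in every tumor. The summed level of the list was 4.50 to 27.0 CPM in Arg1-high and 5.81 to 30.7 CPM in Arg1-low tumors. S100a8 and S100a9 were highest in GEM7 at 3.13 and 3.38 CPM, and lowest or nearly so in GEM4, at 0.102 CPM each.

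Genes of alternative macrophage activation, the state of which Arg1 is a classical marker, split the Arg1-high class. Of 24 tested, 19 were higher with a median of 0.26, 5 had p under 0.05 (20.8%, against 3.8% of all genes) and 1 did not overlap (4.17%, against 2.1%). The 24 include 2 (8.33%, against 2.9% of all genes) that met the filter on low counts only through the Arg1-high tumors. Of the other 22, 17 were higher, with a median of 0.19. Without GEM4 the median was 0.54 and 4 of the 24 did not overlap, where 3.22% of all genes were above without overlap among the tumors that remained. Retnla was at 14.2 CPM in GEM5 and 3.16 in GEM7 but at 0.237 CPM in GEM4, inside the range of the Arg1-low tumors, which was 0.0981 to 1.21 CPM with a median of 0.415. Ccl24, a chemokine of such macrophages, was at 7.38 and 4.09 CPM in GEM5 and GEM7 and at 0.0677 CPM in GEM4, below all Arg1-low tumors. Their folds of 3.56 and 3.75 (log2) had adjusted p of 0.573 and 0.507 in edgeR, both were called by DESeq2, and neither overlapped once GEM4 was left out. Egr2, a transcription factor, was above in all 3 tumors by 1.03 ± 0.260 (log2, SE, adjusted p 0.507 in edgeR). Cd163, a scavenger receptor, was highest in GEM7 at 2.71 CPM and at 0.135 CPM in GEM4.

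Over the lists of cell types other than keratinocytes and macrophages, the median fold ran from -0.77 (red blood cells, 3 genes tested) to 0.82 (T and NK cells, 8 genes tested of 20). For T and NK cells 6 of 8 genes were higher, 1 with p under 0.05 and none without overlap. Of these 8 genes, 4 passed the filter on low counts only through the Arg1-high tumors, and the median of the other 4 was -0.06. Without GEM4 the median of the 8 was 1.27 and 3 of them did not overlap, where 3.22% of all genes were above without overlap. Those 3, Cd2, Cd3e and Cd5, all belong to the 4 genes that the filter favoured. GEM7 was above GEM8 in all 8, by more than 1 on the log2 scale in 7, against 10.4% of all genes. The 4 genes that the filter favoured are included in these counts too. The part of these cells in the differences was not tested.

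**Figure D4:**
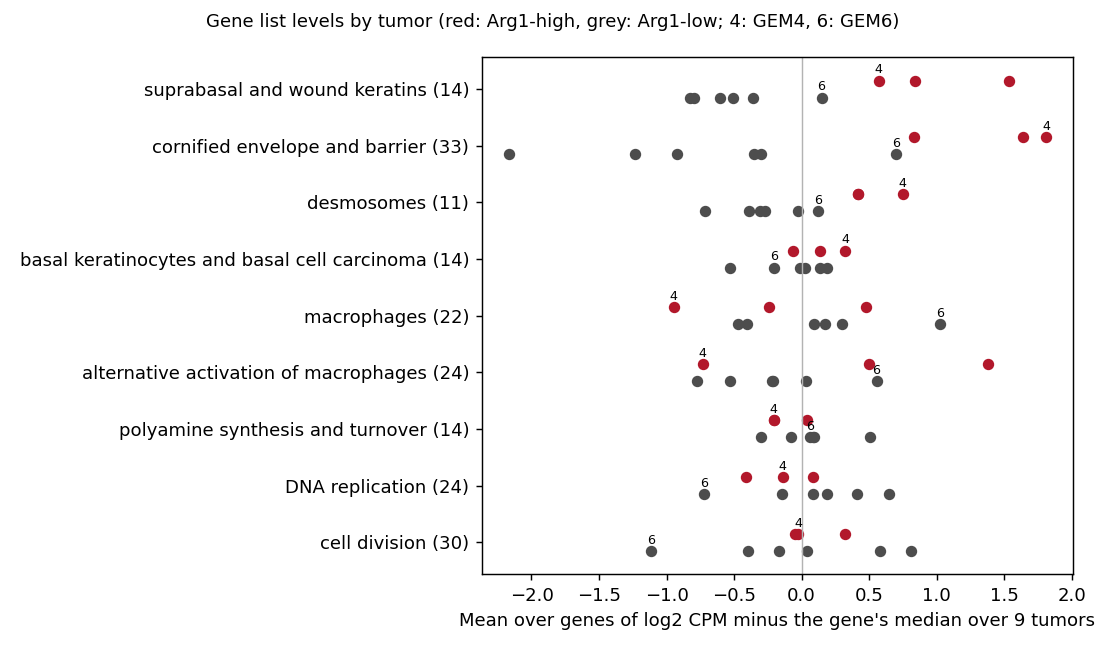
Level of 9 gene lists in each GEM-BCC tumor, with the number of tested genes in parentheses. The level is the mean over the genes of log2 CPM minus the mean of each gene over the 9 tumors, although the axis title names the median. Red points are Arg1-high and grey points Arg1-low tumors, and GEM4 and GEM6 are marked 4 and 6. The red points lie right of all grey points for the keratin, cornified envelope and desmosome lists, and the classes overlap in the other 6, with GEM4 at -0.947 for macrophages.

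Genes of DNA replication were mostly lower. Of 24 tested, 22 had a lower fitted level in Arg1-high tumors with a median of -0.35 on the log2 scale, though none had p under 0.05 and none was without overlap. Mcm7 and Pcna, parts of the helicase and the clamp, differed by -0.39 and -0.45. GEM6 had the lowest list level of all 9 tumors, at -0.725. Among 30 cell division genes, 11 were higher and 19 lower, with a median of -0.08.

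Beyond the lists, the 12 genes above and the 12 below with the smallest p among non-overlapping genes of sufficient level were named by rule, and all of them missed the adjusted threshold in edgeR, at adjusted p of 0.234 to 0.628. DESeq2 called 18 of the 24, and 53 of all 14494 genes. The 24 were picked by small p and lack of overlap in the same counts, so that their share of calls is no independent evidence. Rims3, a protein of the presynaptic active zone, was at 27.5, 19.9 and 9.83 CPM in GEM4, GEM5 and GEM7 and at 2.76, 4.45 and 6.50 CPM (lowest, median and highest) in the Arg1-low tumors, a difference of 2.09 ± 0.358 (log2, SE). Rab6b, a Rab of Golgi transport, was at 58.0, 33.4 and 31.8 CPM against 2.19, 3.50 and 12.7 CPM, a difference of 2.79 ± 0.546. Kif5c, a kinesin heavy chain, was at 42.7, 33.2 and 31.2 CPM against 1.28, 8.86 and 12.8 CPM, a difference of 2.10 ± 0.475. GEM4 was the highest of the 9 tumors in all 3 genes.

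The other genes above were Myorg, a glycosidase of the endoplasmic reticulum (1.49 on the log2 scale), Tspan2, a tetraspanin (1.81), Pbx3, a homeodomain factor (1.68), Nfe2l3, a basic leucine zipper factor (1.33), Perp (1.90), Sh3gl2, an endophilin of endocytosis (1.87), Atp6v1c2, a subunit of the proton pump (2.87), Krt10 (1.97) and Cidea, a lipid droplet protein (2.07).

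Among the genes below, Sdsl, a serine dehydratase-like enzyme, was at 0.982, 0.514 and 1.05 CPM in GEM4, GEM5 and GEM7 and at 3.14, 7.47 and 15.5 CPM (lowest, median and highest) in the Arg1-low tumors, a difference of -3.20 ± 0.598 (log2, SE). Gstm1, a glutathione transferase, was at 86.1, 73.0 and 81.8 CPM against 126, 141 and 172 CPM, a difference of -0.84 ± 0.176. Gsta3, another transferase of the same kind, differed by -3.96 but with GEM2 at 0.793 CPM, next to 0.786 CPM in GEM5. Igfbp6, which binds insulin-like growth factor 2, was at 7.45, 17.2 and 5.24 CPM against 22.8, 36.7 and 86.1 CPM, a difference of -2.10 ± 0.510.

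The remaining genes below were Egfl6, a matrix protein of the hair follicle (-0.89 on the log2 scale), Tmem88, a membrane protein (-1.22), Cyp2s1, a cytochrome P450 of epithelia (-1.04), Fbln7, a fibulin of the matrix (-1.31), Zbed3 (-0.96), Exoc3l4 (-1.38), Vsir, an immune checkpoint protein (-0.75), and Tnfaip2, a gene induced by tumor necrosis factor (-0.74).

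The pattern most like that of Arg1, by Pearson's r of log2 CPM over the 9 tumors, was that of Gdpd1 (r = 0.91), followed by Rab6b (0.88), Dpysl5 (0.88), Mllt11 (0.87), Cidea (0.87), Lig4 (0.86), Rabgef1 (0.86) and Rims3 (0.85). These values describe 9 points that share library depth and fall into 2 separate clusters of Arg1, and they carry no p. Several of these differences were small: Mllt11 and Rabgef1 differed by 0.30 and 0.16 on the log2 scale between the classes, and Dpysl5 overlapped.

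On chromosome 10, several genes beside Arg1 were far higher in GEM4 than in any other tumor. Relative to the median tumor, Med23, the next tested gene on one side, was 5.10 higher in GEM4 on the log2 scale, Enpp1 5.99 and Moxd1 4.97, and Akap7, the next on the other side, was 3.08 higher, whereas Epb41l2 beyond it was 0.13 higher. Ccn2 and Enpp3 were 2.87 and 0.74 higher, and Tmem200a, L3mbtl3 and Arhgap18 differed from the median tumor by 0.41 or less in GEM4. Med23 was at 35.2 CPM in GEM5 and 44.4 CPM in GEM7, inside the range of the Arg1-low tumors, 29.6 to 52.8 CPM. Enpp1 was at 396 CPM in GEM7 and at 277 CPM or less in the Arg1-low tumors, and Moxd1 was at 188 CPM in GEM7 and at 159 CPM or less in them, so that GEM7 was above all Arg1-low tumors in both genes. GEM5 was inside the range of the Arg1-low tumors in both, at 165 and 147 CPM. Perp belonged to the same stretch of raised genes in GEM4. On the side of Med23, most tested genes further out were raised in GEM4 as well. Part of them were also raised in GEM8 and GEM9, which are Arg1-low tumors. The order of genes was taken from the RefSeq table, and no copy number was measured.

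**Figure D5:**
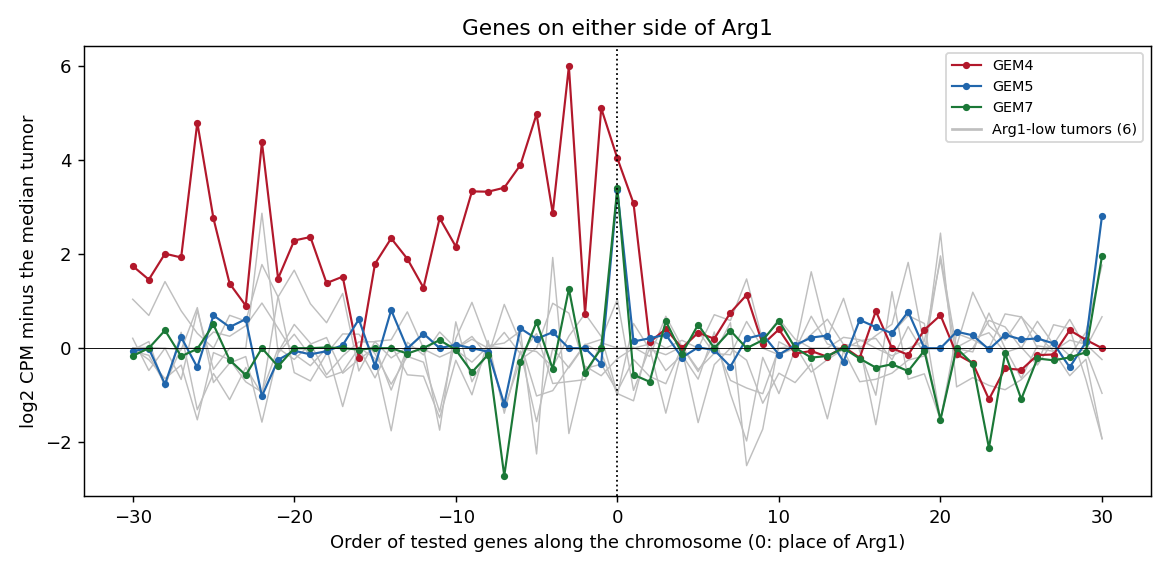
Log2 CPM minus the median tumor (y axis) for tested genes in their order along chromosome 10 (x axis, 0 is the place of Arg1, 30 genes on either side), with 1 line per tumor. GEM4 (red) lies above the other tumors at most genes left of Arg1 and at Akap7 on its right, up to 5.99 at Enpp1, whereas GEM5 (blue) and GEM7 (green) peak at Arg1 itself.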

How the data were processed

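Poly(A) RNA of 9 GEM-BCC and 4 Tp-BCC tumors was sequenced by the study, 1 library per tumor. According to the study's methods and the submitters' processing notes, SOAPnuke filtered the reads, Bowtie2 2.3.4.3 placed them on GRCm39 transcripts and RSEM 1.3.1 estimated abundance. The authors deposited expected counts per gene symbol, neither normalized nor pooled, and these were rounded to whole numbers here. Total counts were 28075317 to 32629102 in GEM-BCC libraries.

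The GEM-BCC tumors were divided by their Arg1 counts, and the members, the gene lists and the rule for named genes were chosen with earlier results of these data known. Genes with 10 counts or more in at least 3 of the 9 tumors, Arg1 excepted, were tested: 18619 of 21100 listed genes had a value in all 9 tumors and 14494 were tested. edgeR 4.0.16 (TMM, robust quasi-likelihood fit, R 4.3.3) gave log2 fold changes, standard errors and p-values, adjusted by Benjamini-Hochberg over all tested genes at a threshold of 0.05, with a log2 fold threshold of 2 where stated. The test was checked on simulated counts. Named genes were, by rule, non-overlapping genes with the 12 smallest p in each direction at a mean log2 CPM of 1 or more, the highest-level members of each list, the 8 genes most like Arg1 (log2 CPM, prior count of 2) and 5 neighbours of Arg1 on each side. Other genes were chosen after their values were seen. Classes do not overlap where every Arg1-high tumor lay beyond every Arg1-low tumor. DESeq2 1.42.0 (the tool used in the study), limma 3.58.1, other scalings and filters, a GC correction, left-out tumors and 1 library per mouse were alternatives. For 1 library per mouse, GEM2 and GEM3 were summed, whereas GEM7 was kept and GEM8 left out. The p-values measure the spread between tumors, some of which shared a mouse, and describe association with a split made from the same libraries. Sequences and gene order came from RefSeq (GRCm38.p6), and GC content from GENCODE transcripts. A list member that is withheld is counted in its list but not reported here by itself.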

Additional observations from a re-analysis of the deposited data

Results flagged for a closer look

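A tumor was singled out where its gap to the nearest of the others, as a share of the range of the 9 GEM-BCC tumors on the log2 CPM scale, was above Dixon's critical value for 9 values. For any 1 gene, chance alone gives such a gap in about 1 in 20 groups. Many genes were looked at, so that some of the gaps below can be due to chance. GEM4 was singled out as the highest tumor in Perp (0.591), Moxd1 (0.612), Enpp1 (0.606), Med23 (0.853) and Akap7 (0.608), which all lie on chromosome 10 near Arg1. GEM7 was singled out as the highest tumor in Krt1 (0.606), Krt6b (0.654) and Cd163 (0.559). GEM3 was the lowest tumor in Kif5c (0.499), where it had 39 counts, and the highest in Pcna (0.503). The cause of these gaps was not tested.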

How the results depend on the processing

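No gene passed the adjusted threshold with DESeq2 size factors, library size scaling, a stricter filter, dispersions that were not robust, the slope on Arg1, the GC correction or without both tumors of the mouse of GEM7 and GEM8, the last chosen after seeing the data. DESeq2's test called 53 genes (37 with a log2 fold above 2), the fit without a filter called 1 (1 above that fold, Ak5), and 2 (2 above that fold) were called with all 13 tumors in the fit, with 1 library per mouse, and with mouse as a random effect in limma. The setting of 1 library per mouse summed GEM2 and GEM3 but left out GEM8, and its calls were Kif5c and Rpl39l. Leaving out single tumors gave 0 to 2 calls (0 to 2 above that fold), the 2 being Ak5 and Krtdap without GEM6, and Rpl39l was called without GEM8. Unadjusted p under 0.05 was found for 421 genes without GEM4, 483 without GEM7 and 395 without the mouse of GEM7 and GEM8, against 738. Genes above without overlap numbered 345 to 693 and genes below 156 to 674 when 1 tumor was left out, both highest without GEM5, and 394 and 253 without GEM1. With 1 library per mouse they were 525 and 439, without the mouse of GEM7 and GEM8 458 genes were below, and with library size scaling 79 were below. Fewer tumors make a gap between classes easier by construction.

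Of 94 genes given with a value, 14 changed sign in some alternative and 32 passed the threshold in some alternative. Their log2 folds with 1 tumor left out ran from -0.38 to 0.19 for Nos2, -0.26 to 0.041 for Nos3, -0.68 to 0.024 for Casp14, -0.42 to 0.10 for Krt5, -0.19 to 2.06 for Cd163, -0.77 to 1.61 for S100a8, -0.81 to 1.77 for S100a9, -0.56 to 1.69 for Ccn2, -0.26 to 0.40 for Enpp3, -0.15 to 4.19 for Med23, -0.029 to 2.43 for Akap7, -0.17 to 0.18 for Epb41l2, -0.29 to 2.31 for Ly6d and -0.32 to 1.83 for Scel. Cd163, S100a8 and S100a9 turned without GEM7, Ccn2, Med23 and Akap7 without GEM4. Without the mouse of GEM7 and GEM8 the folds were 0.28 for Nos2, 0.12 for Nos3, -0.30 for Cd163, -0.68 for S100a8, -0.70 for S100a9, 0.17 for Epb41l2, -0.55 for Ly6d and -0.57 for Scel. With library size scaling they were 0.041 for Nos2, 0.0040 for Nos3 and 0.058 for Epb41l2, with the GC correction 0.0076 for Nos2, and with 1 library per mouse -0.057 for Enpp3. The cause was not tested.

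No paired analysis was possible because both classes lie within the induced tumors, whose numbers name single tumors, and only 1 mouse gave a tumor to each class. Arg1 rested on 1 to 10 counts in the Arg1-low tumors, so its order among them cannot be read.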

Other observations

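In alternatives other than DESeq2's test, 4 genes outside the lists and the rule for named genes passed the threshold, and they are given here by their counts. Rpl39l, a paralogue of the ribosomal protein gene Rpl39 with which it shares sequence, so that its counts are uncertain, had 3, 19 and 4 counts in GEM4, GEM5 and GEM7 and 0 in GEM8, the Arg1-low tumor from the mouse of GEM7, whereas the other 5 Arg1-low tumors had 561 to 2332 counts. Ak5, an adenylate kinase, had 217, 167 and 234 counts in GEM4, GEM5 and GEM7 and 1 to 12 in the Arg1-low tumors, an edgeR adjusted p of 0.0672. Rec114, a gene of meiotic recombination, had 117, 102 and 17 counts in the Arg1-high tumors and 4 to 8 in the Arg1-low tumors. Oc90, a protein of the inner ear, had 13, 19 and 42 counts in the Arg1-high tumors and 0 in all 6 Arg1-low tumors. Rec114 and Oc90 reached 10 counts in no Arg1-low tumor, so that the filter on low counts itself fixed their difference between the classes. Ak5 also passed it only through the Arg1-high tumors, which favoured a difference, although GEM6 had 12 counts and GEM8 had 10.

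Lists of the hair follicle and of the interferon response were higher in fitted level in most of their genes. Of 19 tested hair follicle and hair shaft genes 16 were higher, with a median of 0.33 on the log2 scale and 1 without overlap. The 19 include 4 (21.1%, against 2.9% of all genes) that met the filter on low counts only through the Arg1-high tumors. Of the other 15, 12 were higher, with a median of 0.32. Of 22 interferon response genes 16 were higher, with a median of 0.25, none without overlap and none with p under 0.05. The 22 include 2 (9.09%) that met the filter only through the Arg1-high tumors, and 14 of the other 20 were higher.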
